A study of Mus musculus with 3 samples.

Results

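Gm14744, 5430402E10Rik, Obp2a and Mup4 encode secreted lipocalins of the odorant-binding and major urinary protein families. They were chosen by their counts, which stood among the largest ratios of the knockout library to the controls, so those ratios describe the choice. No test of them is reported. The 4 genes were taken by symbol from the 20937 genes of the count table, and all 4 were present in the 3 libraries. Each library held RNA from the whole incisor enamel organ (EO), the epithelium that forms enamel, of mice aged 4 weeks. The genotype of the Stim1 cKO library was Stim1 fl/fl Cre+, that of Stim1 HT was Stim1 fl/wt Cre+ and that of Stim1 Ctrl was Stim1 fl/fl Cre-, with 1 library per genotype and the number of mice per library not given in the sources used here. The Cre recombinase was driven by AmelX regulatory sequence, which is active in ameloblasts, so the deletion was aimed at ameloblasts and not at other cells of the dissected tissue. All 3 genotypes carried at least 1 floxed allele, and Stim1 HT carried the Cre transgene as Stim1 cKO did. No genotype had a replicate, so no difference below has a replicate check, and every interval covers counting error only.

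Lipocalins fold into a barrel with a hydrophobic pocket that carries small molecules such as odorants, pheromones and lipids. Odorant-binding proteins are secreted by glands of the nasal mucosa, and related proteins leave through tears and saliva. Major urinary proteins are best known from liver and urine, and Mup4 belongs to the members of that family made in nasal and lacrimal tissue. None of these proteins is a known component of enamel, whose matrix is made of amelogenin, ameloblastin and enamelin.

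In GENCODE M21 on GRCm38, Gm14744 lies at chrX:77864758-77870033 on the plus strand and 5430402E10Rik at chrX:77919786-77925062 on the minus strand. Obp2a lies at chr2:25700043-25703326 on the plus strand and Mup4 at chr4:59956804-59960710 on the minus strand. Each gene has 7 exons, of which 6 hold coding sequence, and the fifth exon is 102 bases long in all 4. Gm14744 and 5430402E10Rik each encode 173 residues, Obp2a 176 and Mup4 178. The number of annotated genes that overlap any of the 4 was 0.

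The 250 bases before the transcription start of each gene are shown because the 4 genes were high in the same library. They were read from RefSeq promoters on GRCm38.p6 at chrX:77864508-77864757 (plus), chrX:77925063-77925312 (minus), chr2:25699824-25700073 (plus) and chr4:59960668-59960917 (minus), in the order of the lines. Capitals mark the TATATAA or TATAAA nearest to the start.
Gm14744: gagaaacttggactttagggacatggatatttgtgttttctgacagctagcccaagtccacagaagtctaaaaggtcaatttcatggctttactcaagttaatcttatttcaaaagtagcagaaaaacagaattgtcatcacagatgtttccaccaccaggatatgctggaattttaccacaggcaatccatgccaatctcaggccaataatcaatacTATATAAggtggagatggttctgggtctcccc
5430402E10Rik: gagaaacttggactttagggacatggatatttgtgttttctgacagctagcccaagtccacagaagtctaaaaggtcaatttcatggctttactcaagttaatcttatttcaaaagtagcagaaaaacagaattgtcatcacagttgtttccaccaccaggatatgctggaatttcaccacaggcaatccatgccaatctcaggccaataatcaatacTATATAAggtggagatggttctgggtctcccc
Obp2a: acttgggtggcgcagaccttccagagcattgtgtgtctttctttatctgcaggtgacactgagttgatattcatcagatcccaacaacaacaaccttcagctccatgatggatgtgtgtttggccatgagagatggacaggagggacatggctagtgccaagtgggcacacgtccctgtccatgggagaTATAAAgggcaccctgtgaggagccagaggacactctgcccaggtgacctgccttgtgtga
Mup4: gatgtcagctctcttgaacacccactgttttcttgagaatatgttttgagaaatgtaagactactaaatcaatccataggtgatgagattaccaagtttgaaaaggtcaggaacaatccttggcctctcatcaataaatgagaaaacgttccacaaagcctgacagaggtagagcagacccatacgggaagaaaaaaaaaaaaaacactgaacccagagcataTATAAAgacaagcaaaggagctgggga
The first pair of lines was nearly the same sequence. Of the 250 bases, 248 were identical (99.2%), and the differences were A145T and T176C, written with the Gm14744 base first and counted from 1 at the 5′ end of the line. TATATAA began 32 bases before the start in both genes. In Obp2a the marked TATAAA began 61 bases before the start, and in Mup4 it began 27 bases before it, with an overlapping TATATAA at 29. GENCODE places the starts of Obp2a and Mup4 further upstream than RefSeq, by 31 and 43 bases, so the last bases of both lines belong to the GENCODE transcript and the letters marked in Mup4 lie inside it. Of 32851 RefSeq promoters, 8.70% held TATAAA or TATATAA within the same 250 bases on the strand of the gene, and 13.8% on either strand. A match of these letters is a description and not a mapped site. Obp2a and Mup4 resembled neither each other nor the X-linked pair in this window, with 52.0 to 53.6% identical bases after alignment.

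Before the values, facts that set the Stim1 cKO library apart need to be stated. Wherever 3 values follow each other below, their order is Stim1 cKO, Stim1 HT, Stim1 Ctrl. The libraries totalled 21496136, 20216507 and 28265960 counts. Levels are in CPM, counts relative to library size after TMM scaling, and Stim1 itself was at 72.8, 129 and 186 CPM. Amelx, which encodes amelogenin, was at 2064, 20009 and 14084 CPM, so the labelled tissue was present in all 3 libraries. Xist, the RNA of the inactive X chromosome in female cells, had 10897, 36 and 1 counts. Y-linked Ddx3y had 991, 1587 and 2058 counts, although the study's methods state that male mice were used. The Stim1 cKO library thus held an RNA of female cells together with Y-linked RNA, and no result could be recomputed without it because it is the library of that genotype. The part of this in the levels of the 4 lipocalins was not tested.

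Gm14744, an odorant-binding protein gene of the X cluster, had 30473 counts in Stim1 cKO against 87 (Stim1 HT) and 2 (Stim1 Ctrl). Its expression levels were 1258 CPM (95% Poisson interval 1244 to 1272), 4.42 CPM (3.54 to 5.45) and 0.0777 CPM (0.00941 to 0.281). The Stim1 Ctrl library was at the limit of detection, set at 3 counts per library, which equals 0.124, 0.152 and 0.117 CPM. The level in Stim1 cKO was 285-fold that in Stim1 HT (231 to 356) and 16195-fold that in Stim1 Ctrl, an estimate on 2 control counts whose interval ran from 4483 to 133730. In this bulk tissue a change in the number of cells of a type cannot be told apart from a change in RNA per cell.

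5430402E10Rik, the near copy of Gm14744 on the opposite strand, had 14192 counts in Stim1 cKO against 3 (Stim1 HT) and 2 (Stim1 Ctrl). Its levels were 586 CPM (576 to 596), 0.152 CPM (0.0314 to 0.445) and 0.0777 CPM (0.00941 to 0.281). Both controls were at or below the limit of detection, so this was the gene with the least signal outside the knockout library. The ratios of Stim1 cKO were 3849 to Stim1 HT (1317 to 18667) and 7542 to Stim1 Ctrl (2088 to 62284), and their width shows how little the few control counts fix them.

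Obp2a, an odorant-binding protein gene of chromosome 2, had 22727 counts in Stim1 cKO against 45 (Stim1 HT) and 1 (Stim1 Ctrl). The levels were 938 CPM (926 to 951), 2.28 CPM (1.67 to 3.06) and 0.0388 CPM (9.84e-04 to 0.216). Like Gm14744, Obp2a was detected in Stim1 HT and at the limit in Stim1 Ctrl. Its level in Stim1 cKO was 411-fold that in Stim1 HT (307 to 564) and 24156-fold that in Stim1 Ctrl (4335 to 954156, on 1 control count).

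Mup4, a major urinary protein gene, had 16609 counts in Stim1 cKO against 12 (Stim1 HT) and 51 (Stim1 Ctrl). This gave 686 CPM (675 to 696), 0.609 CPM (0.315 to 1.06) and 1.98 CPM (1.48 to 2.61). Mup4 was thus the gene of the 4 whose higher control was Stim1 Ctrl and not Stim1 HT. Its level in Stim1 cKO was 1126-fold that in Stim1 HT (645 to 2180) and 346-fold that in Stim1 Ctrl (263 to 465).

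**Figure D1:**
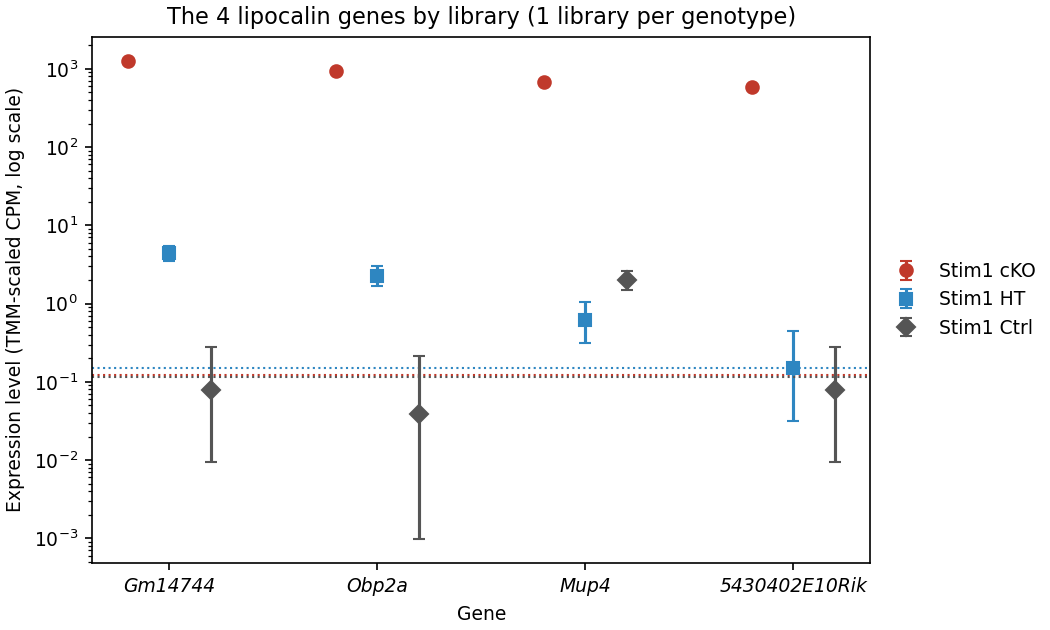
Expression levels of the 4 lipocalin genes in TMM-scaled CPM on a log axis, with 1 point per library, bars for 95% Poisson intervals and dotted lines at 3 counts in each library. The Stim1 cKO points lie between 586 and 1258 CPM and every control point lies at or below 4.42 CPM.

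The plot of levels by library shows no overlap between Stim1 cKO and the controls for any of the 4 genes. That 4 of 4 were over 2-fold above both controls was fixed by the choice, and 17.9% of the 18006 genes whose mean count reached 10 met the same cutoff. Their summed counts were 84001, 147 and 56, which is 0.391%, 7.27e-04% and 1.98e-04% of each library. On the log2(CPM + 1) scale, which understates the ratio of genes near 0, Stim1 cKO exceeded the nearer control by 8.99 for 5430402E10Rik, 8.16 for Obp2a, 7.86 for Gm14744 and 7.85 for Mup4. These differences had ranks 1, 3, 4 and 5 among the 14977 genes whose mean count reached 50, which is how the genes were chosen.

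Levels can be set against each other per length of exon. In Stim1 cKO, Gm14744 was at 1573 CPM per kb (1555 to 1591), Obp2a at 1261 (1245 to 1278), Mup4 at 744 (733 to 755) and 5430402E10Rik at 734 (722 to 747). The last pair did not differ beyond counting error, and the other steps in this order did. Among 20712 genes with a known exon length, they ranked 14, 20, 30 and 32 in the knockout library. In Stim1 HT the order was Gm14744 at 5.52 CPM per kb, Obp2a at 3.07, Mup4 at 0.661 and 5430402E10Rik at 0.191. Mup4 came first in Stim1 Ctrl, at 2.15 CPM per kb, and the others were at or below 0.0974.

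The choice rested on the ratio of Stim1 cKO to the controls, and the order of the controls between themselves was not part of it. Gm14744 was higher in Stim1 HT than in Stim1 Ctrl, with a ratio of 56.8 (15.3 to 477), and Obp2a likewise, with a ratio of 58.8, where the level in Stim1 Ctrl was 0.0170 of that in Stim1 HT (4.21e-04 to 0.0997). Mup4 went the other way and was higher in Stim1 Ctrl by a ratio of 3.25 (1.71 to 6.70). 5430402E10Rik, at 3 and 2 counts, gave no measurable difference. By a cutoff of 2-fold among the 18006 genes whose mean count reached 10, 2 of the 4 genes were higher in Stim1 HT, against 8.88% of all genes, and 1 of the 4 was higher in Stim1 Ctrl, against 3.20% of all genes. 5430402E10Rik reached that mean only through Stim1 cKO, and the other genes of the 4 had few counts in at least 1 control, so nothing is read from these shares. There is 1 library on each side, so the differences between the controls describe the libraries and not the genotypes.

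Ratios between genes within a library do not depend on scaling. For every 100 counts of Gm14744, Obp2a had 74.6 (73.3 to 75.9) in Stim1 cKO and 51.7 (35.3 to 75.0) in Stim1 HT, and these intervals overlapped. 5430402E10Rik had 46.6 (45.7 to 47.5) per 100 counts of Gm14744 in Stim1 cKO but 3.45 (0.698 to 10.4) in Stim1 HT. Mup4 had 54.5 (53.5 to 55.5) and 13.8 (6.86 to 25.3). In Stim1 Ctrl, on 2 counts of Gm14744, Mup4 had 2550 (671 to 21624), so its proportion in Stim1 cKO lay above that in Stim1 HT and below that in Stim1 Ctrl. The proportion of 5430402E10Rik was higher in Stim1 cKO than in Stim1 HT, whereas those of Obp2a could not be separated at this depth. For every 100 counts of Obp1a, Mup4 had 70.7 (69.3 to 72.2), 4.48 (2.28 to 7.95) and 1.60 (1.19 to 2.11). Against Obp1b, the other main odorant-binding protein gene of the X cluster, Mup4 had 166 (162 to 170) per 100 counts in Stim1 cKO, 80.0 (34.2 to 183) in Stim1 HT and 68.9 (47.3 to 99.8) in Stim1 Ctrl.

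The near copies could share reads, so the split of counts between them is uncertain. After alignment, the longest transcripts of Gm14744 (800 bases) and 5430402E10Rik (798 bases) were identical at 791 bases, 98.9% of the longer one. Of all windows as long as a read, 33.0% in Gm14744 and 30.2% in 5430402E10Rik occurred in another annotated gene. For Obp2a this share was 0.808%, all of it with Obp2b, and for Mup4 it was 0%. Mup4 and Mup5 were identical at 92.2% of the bases of the longer transcript, and at a window of 50 bases 12.4% of Mup4 and 17.1% of Mup5 occurred in another gene. The 50-base windows of Mup4 and of Mup5 were shared with 24 other genes each. Those of Gm14744 and 5430402E10Rik were shared between these near copies and with Gm14750, an unprocessed pseudogene that is not in the count table. The separate values of Gm14744 and 5430402E10Rik and their sum are therefore uncertain, because the treatment of reads with several matches is not given in the sources used here.

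Of 31 other symbols of the odorant-binding and major urinary protein families, 5 were in the table. All 5 were over 2-fold above both controls in Stim1 cKO, where the same 17.9% of all genes were. Gm5938, a related gene of the X cluster that the list did not hold, was not, which makes 5 of 6. Mup5 and Gm14743 reached the mean count required for these shares only through Stim1 cKO, so nothing is read from the shares. The 5 did not share an order of the controls. Obp1a, the main odorant-binding protein gene of nasal tissue, had 23482 counts in Stim1 cKO against 268 (Stim1 HT) and 3183 (Stim1 Ctrl). Obp1b had 10008, 15 and 74 counts, and its near copy Gm14743, with 57.7% of its windows as long as a read shared with Obp1b, had 822, 4 and 9. Lcn11, on chromosome 2 near Obp2a, had 6916, 80 and 33 counts, and Mup5 had 1821, 2 and 1. Obp1a was well expressed in Stim1 Ctrl, at 124 CPM, and its ratio of Stim1 cKO to Stim1 Ctrl was 7.84 (7.56 to 8.14). Obp1a, Obp1b and Mup4 were all over 2-fold higher in Stim1 Ctrl than in Stim1 HT, and Lcn11 shared the opposite order with Gm14744 and Obp2a.

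With the controls as 1 group, edgeR's quasi-likelihood test called Mup5 among these 5 genes, where 0.0749% of the 18702 genes tested were called higher and 0% lower. The other 4 had an edgeR adjusted p from 0.0115 for Gm14743 to 0.0950 for Obp1a. DESeq2 called 4 of the 5, all but Obp1a, where 6.42% of all genes were called higher and 5.10% lower. These calls set 1 library against the spread of controls that differ in genotype. Mup5, with 2 and 1 control counts, and Gm14743, with 4 and 9, passed the filter on low counts only through Stim1 cKO. A call of either gene therefore adds nothing to its counts.

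**Figure D2:**
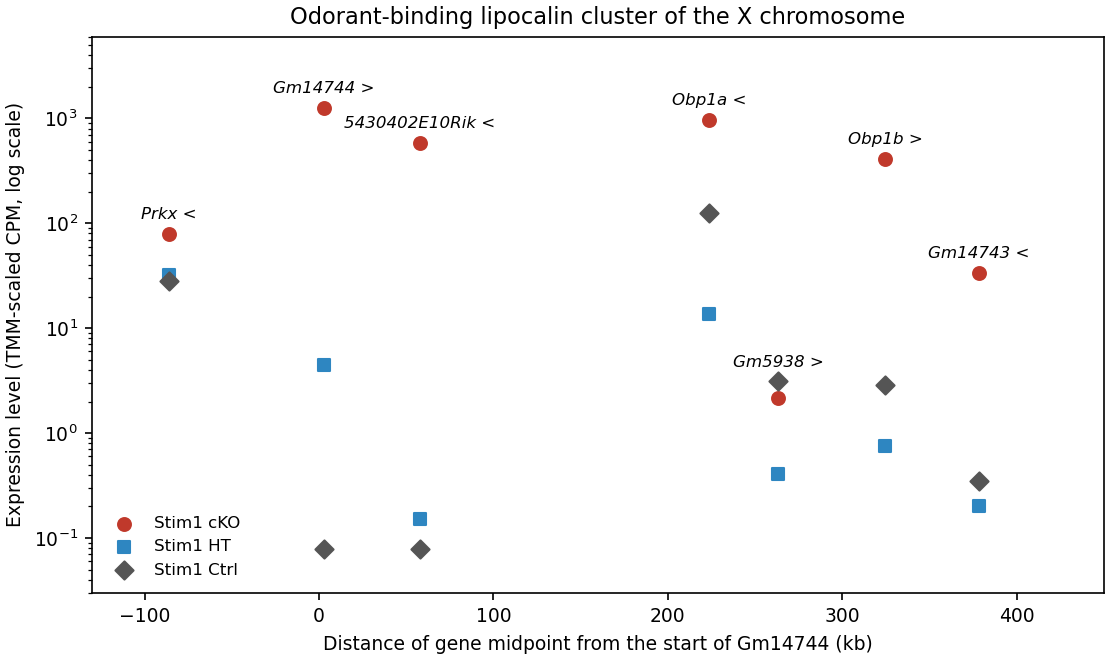
Levels in TMM-scaled CPM on a log axis for 7 genes along the X chromosome, by the distance of each gene's midpoint from the start of Gm14744, with 1 point per library and the strand as > (plus) or < (minus). Gm14744, 5430402E10Rik, Obp1a, Obp1b and Gm14743 have their highest point in Stim1 cKO, while Gm5938 has its highest point in Stim1 Ctrl.

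Genes beside the 4 on the chromosomes were compared with them. The plot of the X cluster includes Gm5938, a gene between Obp1a and Obp1b whose longest transcript was identical to that of Obp1a at 85.2% of its bases. It had 52, 8 and 80 counts, and was not above both controls. Prkx, a kinase gene next to Gm14744, was 2.47-fold above the nearer control. Next to Obp2a, Bmyc was 1.45-fold above the nearer control, and Fcna had a ratio of 0.204. Beside Mup4, Slc46a2 and Snx30 had ratios of 0.966 and 0.957. On the other side of Mup4, 1870609 bases away, Mup5 had a ratio of 741, on 2 and 1 control counts. Obp1a, the next gene beyond 5430402E10Rik, had a ratio of 7.84. These neighbours stood on both sides of their controls, and since the 4 genes were chosen for their ratios, the sizes are not compared with theirs.

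Genes of the glands that make these lipocalins were counted next, from lists that were written with earlier results of these data known. Most nasal gland genes were highest in Stim1 cKO, then in Stim1 HT, the order of Gm14744 and Obp2a. Of 15 nasal and vomeronasal gland genes whose mean count reached 10, 11 (73.3%) were over 2-fold above both controls and 0 were below both, against 17.9% and 8.27% of all genes. Most of the 11 are not separate loci. The Bpif genes lie in a cluster on chromosome 2, and Muc5b lies close to another listed mucin gene on chromosome 7. Sequence shared between these genes was not checked. In the same list 13 (86.7%) were over 2-fold higher in Stim1 HT than in Stim1 Ctrl, against 8.88% of all genes. Their summed level was 9648, 1361 and 210 CPM, and all 15 were above the limit of detection in Stim1 cKO. Over all genes the median of the log2(CPM + 1) difference to the nearer control was -0.16, and in this list it was 3.00. For Stim1 HT against Stim1 Ctrl the medians were -0.00 over all genes and 3.92 in the list.

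Bpifb9b, which encodes a secreted BPI-fold protein of nasal glands, had 77505 counts in Stim1 cKO against 1252 (Stim1 HT) and 5 (Stim1 Ctrl). The mucin gene Muc5b had 58028, 4643 and 236 counts, and Bpifa1, a secreted protein of the airway surface, had 39478, 6039 and 4739. Bpifb9a, with 16989, 229 and 4 counts, had the largest ratio to the nearer control in the list, 60.4. Reg3g, an antimicrobial lectin gene, had 18936, 4657 and 137 counts. Some secretory genes went against this order. Scgb3a1 and Scgb1a1, secretoglobins of airway secretory cells, had 3528 and 1641 counts in Stim1 HT but 71 and 33 in Stim1 cKO. Gm14744 had 39.3 counts (38.8 to 39.8) for every 100 of Bpifb9b in Stim1 cKO and 6.95 (5.53 to 8.64) in Stim1 HT, so these genes did not keep 1 ratio across the libraries.

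Lacrimal gland genes split between the libraries, with a median difference of -3.18 to the nearer control. Of 14 genes, 5 were over 2-fold above both controls and 8 were below both, against 17.9% and 8.27% of all genes. Higher in Stim1 cKO were Ltf (lactotransferrin) with 34882, 7054 and 2872 counts, Car6 (a secreted carbonic anhydrase) with 5613, 194 and 83, and Wfdc18, Scgb1b27 and Scgb2b27. Scgb2b2, a secretoglobin gene, had 40 counts in Stim1 cKO against 168 (Stim1 HT) and 2260 (Stim1 Ctrl), and Esp6, an exocrine gland-secreted peptide gene of lacrimal glands, had 6, 92 and 1082. The order of those genes, highest in Stim1 Ctrl, was shared by Mup4, Obp1a and Obp1b only in the comparison of the controls, where 9 of the 14 were over 2-fold higher in Stim1 Ctrl than in Stim1 HT and 4 were lower. The summed level of the list was 2102, 475 and 435 CPM, with Ltf at 1440 CPM of the first. Scgb2b2 overlaps another listed gene below both controls on the opposite strand, and the strand setting of the counter is not known.

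**Figure D3:**
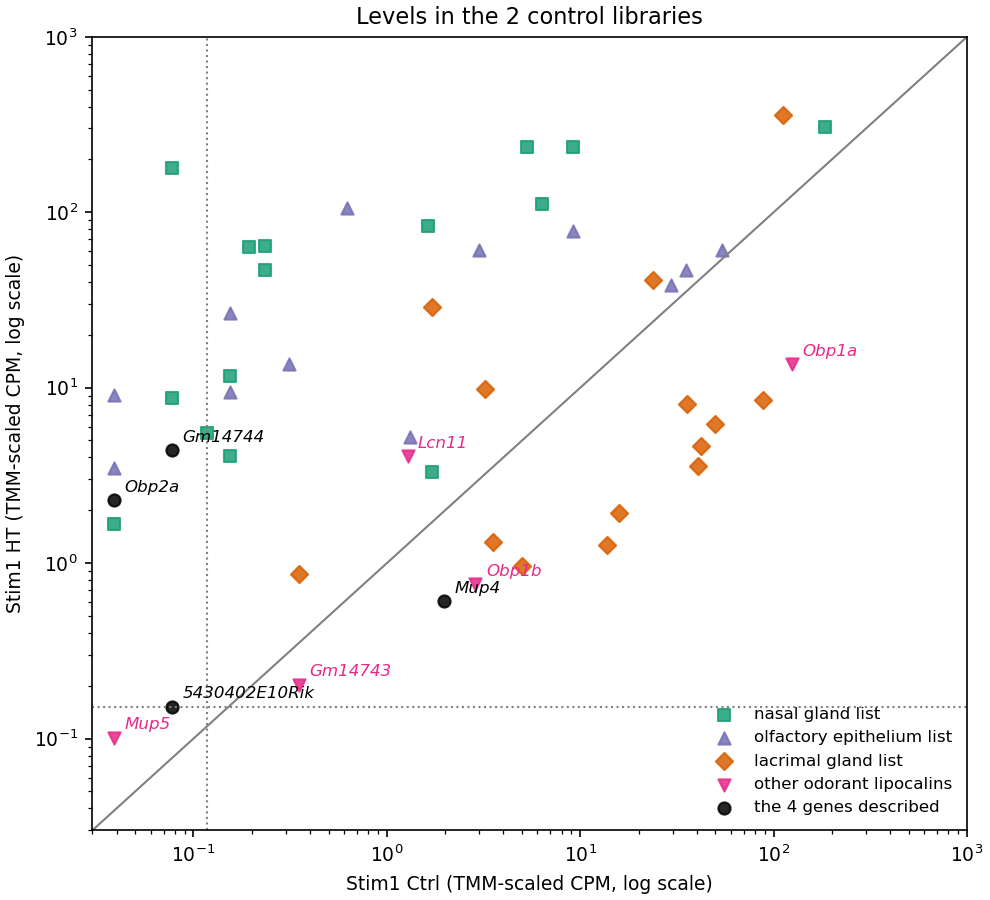
Level in Stim1 HT against level in Stim1 Ctrl, both in TMM-scaled CPM on log axes, for the 4 lipocalin genes, 5 related genes and the nasal gland, olfactory epithelium and lacrimal gland lists, with dotted lines at 3 counts and a grey line of equal levels. Gm14744 and Obp2a lie above the line with most nasal gland genes, and Mup4 lies below it with Obp1a, Obp1b and most lacrimal gland genes.

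The plot of the control libraries places the 4 genes against these lists without using Stim1 cKO. Gm14744 (4.42 against 0.0777 CPM) and Obp2a (2.28 against 0.0388 CPM) lay on the side of the nasal gland genes, where 9 of 12 olfactory epithelium genes (75.0%) and 7 of 11 salivary gland genes (63.6%) also lay beyond 2-fold. Mup4 (0.609 against 1.98 CPM) lay on the side of Scgb2b2 (8.53 against 87.8 CPM) and Obp1a (13.6 against 124 CPM). 5430402E10Rik lay at the limit of detection in both and could not be placed.

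Other glands and the cells around them were counted in the same way, against the same shares of all genes above both controls (17.9%) and below both (8.27%). Of 11 salivary gland genes, 5 were above both controls, with Klk1 (a kallikrein) at 2978, 195 and 200 counts, while Dcpp1, a demilune cell protein gene, was highest in Stim1 HT at 6419 counts. Muc19, a salivary mucin gene, had 1396, 120 and 24 counts and Smgc had 488, 76 and 20. Their annotations overlap on the same strand, as do those of Dcpp1 and Dcpp2, so the genes of neither pair are separate loci. Prb1, a proline-rich protein gene, was at 1 count in Stim1 cKO. Of 16 epithelial genes shared by exocrine glands, 8 were above both controls, with the water channel Aqp5 at 1872, 362 and 222 counts and the immunoglobulin transporter Pigr at 3812, 324 and 9. Genes of lipid-secreting glands gave 0 of 12 above both controls and 5 below, with Elovl3, a fatty acid elongase, at 33, 217 and 297 counts. Of 10 plasma cell genes, 5 were above both, and Igha, the heavy chain of IgA, had 1765, 1 and 2 counts. Igha and Jchain, which had 765, 6 and 2, reached a mean count of 10 only through Stim1 cKO, so nothing is read from the plasma cell share. Summed levels were 492, 842 and 54.7 CPM for the salivary gland list, 1158, 625 and 454 CPM for the exocrine epithelium list, 193, 230 and 341 CPM for the lipid gland list and 220, 44.4 and 21.6 CPM for the plasma cell list. The salivary gland sum was thus highest in Stim1 HT and the lipid gland sum in Stim1 Ctrl, unlike the summed level of the 4 lipocalin genes, which was 3469, 7.46 and 2.18 CPM.

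Genes of sensory tissues of the head and of liver were counted as well. Of 12 olfactory epithelium genes, 10 (83.3%) were above both controls, against 17.9% of all genes, and Omp, the marker of mature olfactory neurons, had 5359, 2065 and 16 counts. Cyp2a5, an enzyme of the olfactory mucosa, had 20596, 1539 and 237 counts. The summed level of the olfactory list was 1793, 457 and 134 CPM. All 8 rod photoreceptor genes in the table were above both controls, among them Gnat1 (rod transducin) with 4294, 2 and 5 counts and Sag (arrestin) with 2628, 23 and 12. Above both controls were 17.9% of all genes, but genes with control counts as low as those of Gnat1 reach a mean count of 10 only through Stim1 cKO, so nothing is read from the share. The summed level of the rod list was 1053, 2.18 and 1.90 CPM. Liver genes were listed because the liver makes major urinary proteins. The 4 with a mean count of 10 or more were all above both controls, where 17.9% of all genes were. Ttr (transthyretin) had 164, 57 and 15 counts, Cyp2e1 89, 4 and 10, and Hpx (hemopexin) 38, 9 and 10. Cyp2e1 and Hpx reached that mean only through Stim1 cKO, so nothing is read from the liver share. Alb, the albumin gene, had 9, 2 and 7 counts, and the summed level of the list was 18.4, 5.63 and 3.38 CPM. Of 6 lipocalin genes of other tissues, 2 were above both controls, again against 17.9%, and Lcn2, a lipocalin of neutrophils and inflamed epithelia, had 397, 260 and 645 counts. The part of any of these tissues in the levels of the 4 genes was not tested.

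**Figure D4:**
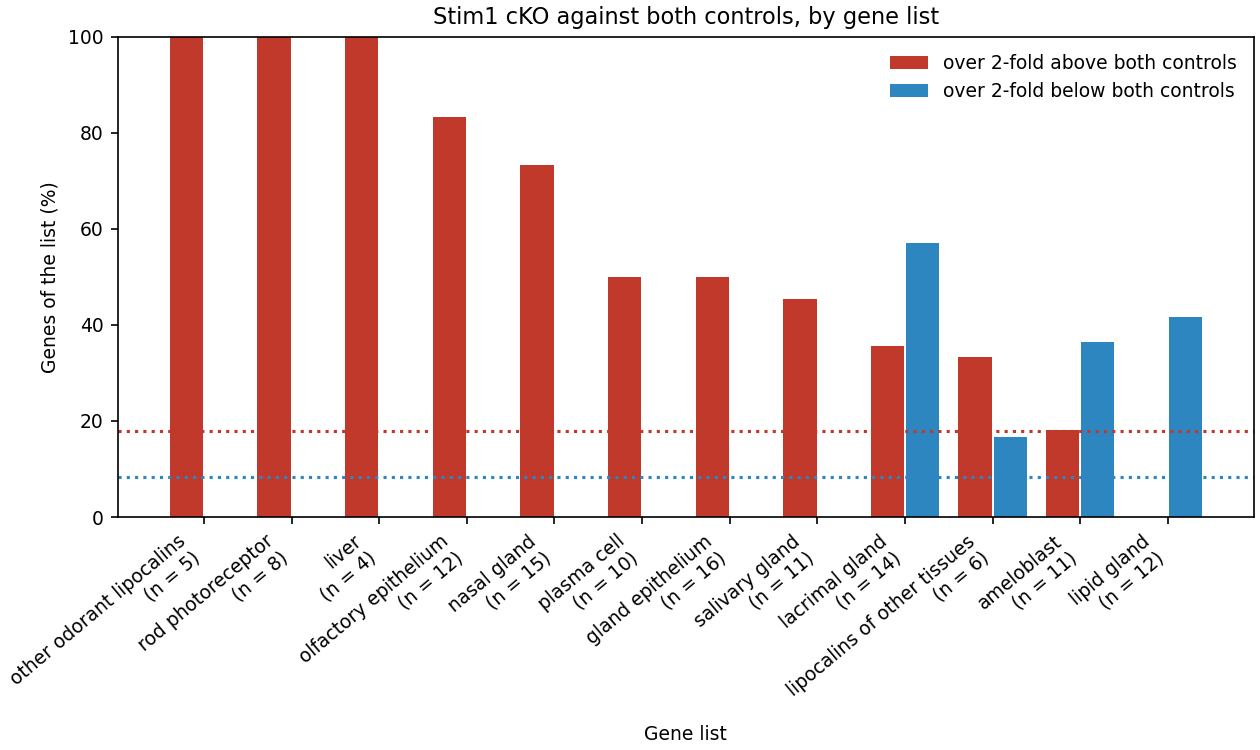
Share of each list's genes (mean count of 10 or more) that were over 2-fold above (red) or below (blue) both controls in Stim1 cKO, in percent, with dotted lines at the shares of all genes, 17.9% and 8.27%. The red bar is 83.3% for the olfactory epithelium and 73.3% for the nasal gland, it reaches the top for the rod, liver and odorant lipocalin lists of 8, 4 and 5 genes, and the lipid gland list has none. Several lists, among them those at the top, hold genes that reach a mean count of 10 only through Stim1 cKO.

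The plot of list shares also holds the enamel genes of the labelled tissue. Of 11 enamel organ genes, 4 were below both controls (Amelx, Ambn, Enam and Sp6), against 8.27% of all genes. The 2 above both (Krt14 and Odam) were 18.2% of the list, near the 17.9% of all genes. Amelx was at 0.103 of its level in Stim1 HT and 0.147 of that in Stim1 Ctrl.

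The genes nearest to the 4 in pattern over the 3 libraries were found by Euclidean distance of centred log2(CPM + 1), among 14973 genes whose mean count reached 50. Obp2a lay nearest to BC051076 (0.629), Xist (0.791) and Gm6619 (0.899), and Gm14744 to Gm6619 (0.883), BC051076 (0.957) and Xist (1.02). BC051076 had 22386, 70 and 23 counts, and Gm6619 had 13492, 72 and 2. For 5430402E10Rik, BC051076 (1.02) and Xist (1.26) were among the 3 nearest, and for Mup4, Obp1b (0.822) and Gnat1 (0.991). With 3 libraries, a small distance says that a gene was high in Stim1 cKO and low in both controls by similar amounts.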

How the data were processed

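RNAseq of whole incisor enamel organ was analysed in 3 libraries, 1 per genotype. The authors trimmed the reads, aligned them with STAR and deposited raw counts per gene symbol, without normalization. The counter, its strand setting, the annotation and the genome build are not given in the sources used here. The labels name a SMARTER kit and the paper a directional NEBNext kit. The smallest deposited count was 1, so a gene with no count in any one library is not listed, and the control levels of listed genes are never 0.

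Counts were scaled by TMM (edgeR 4.0.16, R 4.3.3; factors 1.13, 0.975 and 0.911 for Stim1 cKO, Stim1 HT and Stim1 Ctrl) and given as CPM. Intervals are exact 95% Poisson intervals for levels, and exact (Clopper-Pearson) intervals for ratios of counts. They cover counting error only, and reads without molecular identifiers are not independent molecules. Totals of 20216507 to 28265960 counts place 3 counts at 0.117 to 0.152 CPM. Listed genes other than the 4 have results from edgeR's quasi-likelihood test against the grouped controls, with filterByExpr and Benjamini-Hochberg adjustment. The cutoffs were those of the paper, an adjusted p under 0.01 and a fold change over 2. DESeq2 1.42.0 was run at the same cutoffs, and DESeq2 was the package that the paper used. A run on simulated counts drew both controls from the same mean levels, unlike the controls here, so nothing is read from it. Both tests were fitted to the whole count table with the 4 genes in it, so the shares of genes called can include them. Results of the 4 are not given.

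The 4 genes and the lists were chosen with earlier results of these data known. Genes that could be named were the 4 genes, the other odorant-binding and major urinary lipocalins, in each list up to 4 genes with the highest level in Stim1 cKO and up to 4 with the largest ratio, markers at or under 3 counts, the 3 genes nearest in pattern, chromosomal neighbours and Stim1. Not all of them are described, and 1 gene is not reported here. Scgb2b2, Esp6, Scgb3a1, Scgb1a1, Elovl3, Alb, Ddx3y, Enam, Sp6 and Gm14750 were chosen after their values were seen. Of the promoters, 4 of 4 matched RefSeq by symbol. Transcripts were aligned with Biopython 1.88, and gene positions came from GENCODE M21 (GRCm38), with 20712 of the symbols matched. Alternatives were RLE, upper-quartile and library size scaling, other added CPM, other filters and cutoffs, DESeq2, and leaving out a control.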

Additional observations from a re-analysis of the deposited data

How the results depend on the processing

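The direction of all 4 lipocalin genes, Stim1 cKO above both controls, was kept under each of 32 alternatives, with 0 reversed, while the size moved beyond counting error under 16. On the log2 scale, for 5430402E10Rik, Gm14744, Obp2a and Mup4 in that order, the difference to the nearer control was 11.18, 8.12, 8.62 and 8.36 with 0.1 CPM added, and 6.84, 7.07, 7.02 and 6.63 with 5 CPM added. With control counts of 3 or fewer set to 3 and nothing added it was 11.91, 8.15, 8.68 and 8.44, and 5430402E10Rik came first in each of these but with 5 CPM added, where Gm14744 did. Scaling by library size only gave 9.17 for 5430402E10Rik. Leaving out Stim1 HT or Stim1 Ctrl in turn gave 8.99 to 9.09 for 5430402E10Rik, 7.86 to 10.19 for Gm14744, 8.16 to 9.82 for Obp2a and 7.85 to 8.74 for Mup4. The higher values of Gm14744 and Obp2a were without Stim1 HT and that of Mup4 without Stim1 Ctrl.

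Of 96 alternatives for the numbers of listed genes above both controls, 83 stayed within 1.5 times. The lipocalins of other tissues gave 5 with all listed genes, 1 where the mean count had to reach 50 and 0 at 4-fold, against 2. At 4-fold, the exocrine epithelium list gave 2, plasma cell 3, olfactory epithelium 4, liver 1 and enamel organ 0 genes, and the liver list also gave 1 where the mean count had to reach 50. Leaving out a control gave 5 to 8 salivary gland genes, 5 to 8 plasma cell genes and 2 to 4 enamel organ genes, the upper values without Stim1 HT, and 0 to 1 lipid gland genes, the 1 without Stim1 Ctrl. Of 48 alternatives for Stim1 HT against Stim1 Ctrl, chosen after seeing the data, plasma cell genes moved, to 3 from 5, where the mean count had to reach 50. edgeR called 14 genes, all higher, 0 lower, with 5961 at an unadjusted p under 0.05. The count was 50 with RLE factors, 907 with no filter, 1811 at an adjusted p under 0.05 and 1987 with DESeq2 (1107 higher and 880 lower, 5.10% of those tested).

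No paired analysis was possible because the labels give no replicate numbers and each genotype has 1 library. The depth limits 5430402E10Rik in both controls and Gm14744 and Obp2a in Stim1 Ctrl, whose ratios are known only within their counting intervals. The spread between mice is not known, and the Stim1 cKO library could not be replaced by another of its genotype.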
